A study of Mus musculus with 19 samples.

Results

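The transcripts Chrna9, 1810041L15Rik, Opn1mw, Clca6, Cldn2 and Gm10727 were selected on their own array values: each had a probe with a far higher signal in quadriceps of AR113Q mice than of control mice in these same samples. They are 6 of the 30214 genes on the array and 6 of the 24741 genes tested, and all 10 of their probes were tested. Because the signal in AR113Q against control muscle chose them, every difference between the genotypes is given for them as a description, with no test.

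The mice were male, congenic on C57Bl6J and 180 days old. AR113Q mice carry a knock-in allele with an expanded polyglutamine tract, a model of spinal and bulbar muscular atrophy (SBMA), and the controls (CTR) were wild type. From an age of 40 days, mice of each genotype were fed normal chow (NCD) or a diet high in fat (HFD). Total RNA of whole quadriceps was hybridized to one-colour Agilent arrays, with 5 CTR-NCD, 4 CTR-HFD, 5 AR113Q-NCD and 5 AR113Q-HFD arrays. The allele is a knock-in and is not limited to muscle fibres. The labels do not say whether a sample came from a single mouse, and all p-values measure the spread between these samples.

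Chrna9 encodes the alpha9 subunit of the nicotinic acetylcholine receptor, best known from cochlear hair cells, whereas the receptor of the adult muscle endplate is built from the Chrna1, Chrnb1, Chrnd and Chrne subunits, with Chrng in fetal and denervated muscle. Opn1mw encodes the medium-wave cone opsin of the retina, Cldn2 a pore-forming claudin of epithelial tight junctions, and Clca6 a member of the chloride channel accessory family. The RefSeq gene table lists 1810041L15Rik as Shisal1, a gene of the Shisa-like family, and Clca6 as Clca4a, while Gm10727, a predicted gene, is not in the table.

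Signals are given as log2 of the processed intensity minus the log2 75th percentile of the array, so that 0 is that percentile and a difference of 1 is a doubling. A probe is called well above background where the scanner software found its spot clearly brighter than the background. The 75th percentile of the raw intensity was 791 to 1002 on CTR arrays and 870.2 to 1268 on AR113Q arrays, and 67.1% to 80.1% of CTR probes and 71.9% to 79.3% of AR113Q probes were well above background. The part of this difference in array brightness in the results was not tested. Precision rests on the 4 or 5 arrays of each group. The arrays came from 5 slides scanned on 1 day. Each slide held 1 array of every group, except that slide 4 held no CTR-HFD array.

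The labelled tissue was checked on 16 skeletal muscle markers, all of which were well above background on all 19 arrays. The most abundant was Tnni2, the fast troponin I, with a mean log2 signal of 9.42 in CTR-NCD and 9.13 in AR113Q-NCD. Summed over the 16 markers, the signal was 4400.4 to 5147 times the 75th percentile in CTR-NCD (median 4703) and 3509 to 4087.5 in AR113Q-NCD (median 3866). On HFD it was 4530.5 to 5245 in CTR (median 4818) and 3219.8 to 3757 in AR113Q (median 3531). The muscle sum was therefore lower on every AR113Q array than on every CTR array of its diet, and the part of this in the results below was not tested. In bulk muscle RNA, fewer cells of a type and less RNA per cell cannot be told apart.

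Chrna9 was read by 2 probes, A_51_P381069 and A_55_P2186332. On CTR-NCD arrays the A_51_P381069 signal was -5.42, -6.21, -5.90, -5.24 and -4.60, and on CTR-HFD arrays it was -5.35, -4.16, -6.71 and -4.30. On AR113Q-NCD arrays it was -1.87, -2.56, -2.81, -2.53 and -2.09, and on AR113Q-HFD arrays -2.04, -1.31, -2.03, -2.64 and -2.75. Every AR113Q array lay above every CTR array on both diets. The probe was well above background on all 10 AR113Q arrays, on 3 of 5 CTR-NCD and on 3 of 4 CTR-HFD arrays. The group means were -5.47 ± 0.62 (SD, n = 5) in CTR-NCD and -2.37 ± 0.38 (SD, n = 5) in AR113Q-NCD. On HFD they were -5.13 ± 1.18 (SD, n = 4) and -2.15 ± 0.58 (SD, n = 5). The means differed 8.59-fold on NCD. The undetected control values there already lay above their detection floor, the lowest signal well above background on the array. On HFD, with undetected control arrays set no lower than that floor, the signal was at least 7.44-fold higher in AR113Q. This limit and those given below hold for the scanner's own background correction. With another correction, given further below, the differences of these dim probes were smaller.

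1810041L15Rik was likewise read by 2 probes, of which A_55_P2033376 carried the gain. Its CTR-NCD signals were -4.23, -3.47, -5.09, -4.05 and -3.61 and its CTR-HFD signals -3.60, -4.84, -4.10 and -4.46. Its AR113Q-NCD signals were -1.34, -1.69, -1.37, -1.53 and -0.92 and its AR113Q-HFD signals -0.30, -0.61, -0.31, -1.27 and -0.20. The genotypes did not overlap, and the probe was well above background on all 19 arrays, so the control level is a measured one. The mean rose from -4.09 ± 0.64 (SD, n = 5) to -1.37 ± 0.29 (SD, n = 5) on NCD, a 6.59-fold difference. On HFD the means were -4.25 ± 0.53 (SD, n = 4) and -0.54 ± 0.44 (SD, n = 5), a 13.1-fold difference.

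Clca6 had a single probe, A_55_P1982284. It read -6.44, -6.84, -8.44, -6.65 and -5.76 on CTR-NCD arrays and -6.18, -6.07, -7.95 and -8.17 on CTR-HFD arrays. It read -3.45, -4.05, -4.49, -4.18 and -4.09 on AR113Q-NCD arrays and -2.72, -2.64, -2.42, -3.46 and -3.20 on AR113Q-HFD arrays. All AR113Q arrays were well above background and above all CTR arrays, of which 2 of 5 on NCD and 1 of 4 on HFD were well above background. With the undetected control arrays set no lower than their detection floor, the signal was at least 4.90-fold higher in AR113Q on NCD and at least 9.61-fold higher on HFD.

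Cldn2 went from undetected to detected by its probe A_52_P251450. The CTR-NCD values were -7.53, -7.25, -8.50, -7.44 and -7.47 and the CTR-HFD values -6.86, -7.88, -8.27 and -7.96, none of them well above background. The AR113Q-NCD values were -5.17, -5.12, -4.99, -5.17 and -4.74 and the AR113Q-HFD values -3.66, -4.70, -3.61, -4.35 and -3.74, all of them well above background. The genotypes were fully separated, but the control level lies under what the arrays can measure. Taken against the background level of the control arrays, the signal was at least 2.97-fold higher in AR113Q on NCD and at least 4.89-fold higher on HFD.

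Gm10727, read by the single probe A_55_P2037772, gave -5.76, -6.00, -6.08, -5.64 and -5.40 in CTR-NCD and -5.19, -6.19, -7.08 and -7.00 in CTR-HFD. It gave -2.52, -2.80, -2.69, -3.23 and -2.04 in AR113Q-NCD and -2.56, -2.26, -2.06, -2.64 and -2.68 in AR113Q-HFD. Again no AR113Q array fell within the range of CTR. All CTR-NCD arrays but only 1 of 4 CTR-HFD arrays were well above background. The difference was 3.12 or 8.70-fold on NCD, and at least 11.1-fold on HFD with undetected control arrays set no lower than their floor.

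**Figure D1:**
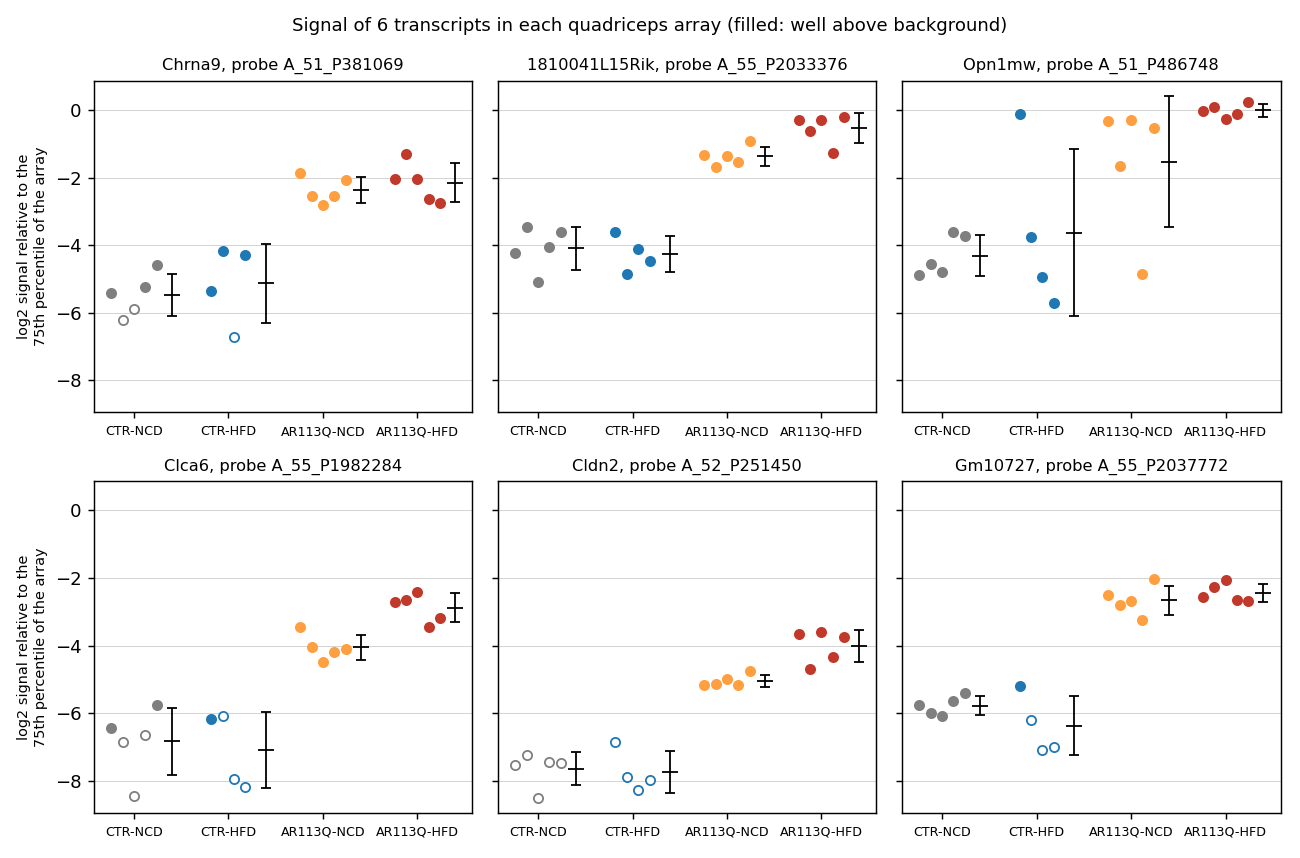
Log2 signal relative to the 75th percentile of the array for the probe with the larger NCD gain of each transcript, by group; each point is an array, filled where it was well above background, and the bars show the mean and SD. For 5 of the transcripts all AR113Q arrays lie above all CTR arrays, whereas Opn1mw has 1 high CTR-HFD array and 1 low AR113Q-NCD array.

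Opn1mw did not separate by genotype. Its brighter probe, A_55_P1965876, read -1.96, -2.04, -2.07, -1.55 and -1.43 in CTR-NCD and 2.45, -1.57, -2.64 and -2.57 in CTR-HFD. It read 1.98, 0.37, 1.92, -2.12 and 1.65 in AR113Q-NCD and 2.38, 2.26, 1.89, 2.03 and 2.43 in AR113Q-HFD. CTR-HFD replicate 1, at 2.45, was as high as the AR113Q-HFD arrays, and AR113Q-NCD replicate 4, at -2.12, was as low as the CTR-NCD arrays, while AR113Q-NCD replicate 2 lay between. The probe was well above background on all 19 arrays.

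The other probe, A_51_P486748, followed it array by array. It read -0.11 in CTR-HFD replicate 1 and -4.84 in AR113Q-NCD replicate 4. Over the 19 arrays the brighter probe exceeded it by 2.02 to 3.15, with a median of 2.29. The mean difference between genotypes was 2.57 on NCD and 3.28 on HFD by A_55_P1965876, and 2.79 and 3.61 by A_51_P486748. Without AR113Q-NCD replicate 4, the NCD differences were 3.29 and 3.62. Without CTR-HFD replicate 1, the HFD differences were 4.46 and 4.79, and without CTR-HFD replicate 4 that of A_51_P486748 was 2.92.

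The arrays that crossed over for Opn1mw did not cross over for the gaining probes of the other transcripts. In CTR-HFD replicate 1, Chrna9 read -5.35, Gm10727 -5.19 and Cldn2 -6.86, each below every AR113Q array. In AR113Q-NCD replicate 4, Chrna9 read -2.53, Gm10727 -3.23 and Cldn2 -5.17, each above every CTR array. Gm10727 and Cldn2 A_52_P251450 nevertheless leaned the same way as Opn1mw. Their highest CTR value was in CTR-HFD replicate 1 and their lowest AR113Q value in AR113Q-NCD replicate 4. For Cldn2 A_52_P251450 that CTR value was not well above background, and AR113Q-NCD replicate 1 was level with replicate 4. The other Cldn2 probe, A_66_P122511, did not lean so. It read -7.05 in CTR-HFD replicate 1 and -5.04, its highest AR113Q-NCD value, in AR113Q-NCD replicate 4. Within AR113Q-NCD and CTR-HFD the SD of A_55_P1965876 was 1.74 and 2.40, against 0.30 in CTR-NCD and 0.23 in AR113Q-HFD.

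**Figure D2:**
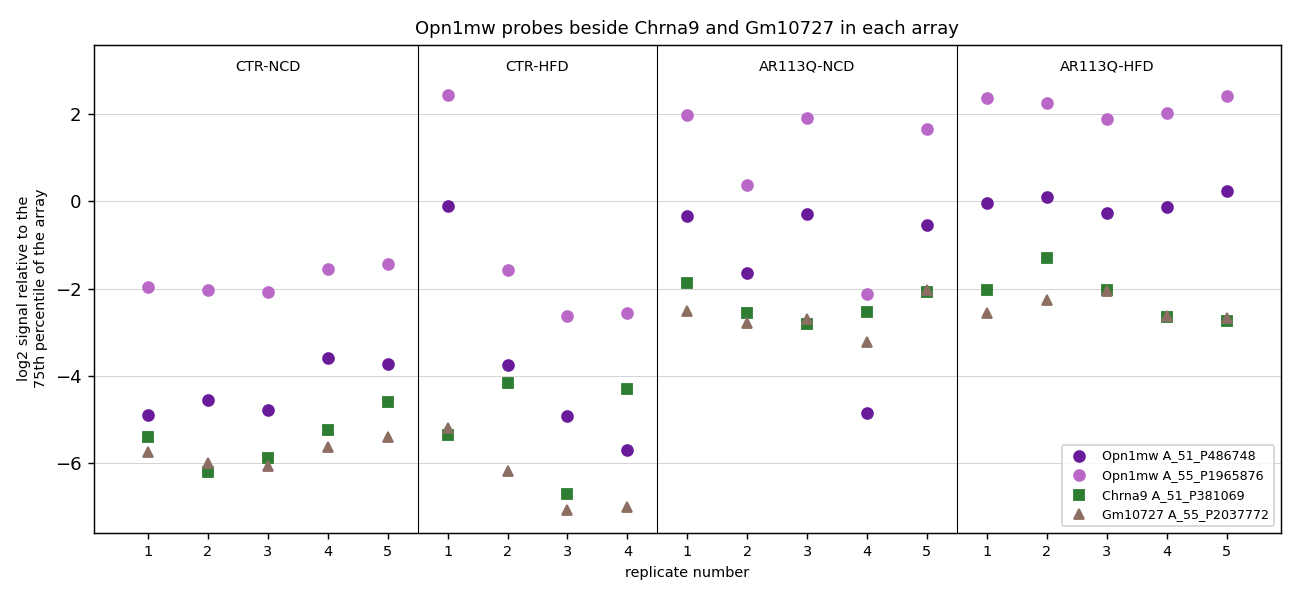
Log2 signal relative to the 75th percentile of the array for both Opn1mw probes, Chrna9 and Gm10727 in each of the 19 arrays, ordered by group and replicate number. Both Opn1mw probes are high in CTR-HFD replicate 1 (2.45 and -0.11) and low in AR113Q-NCD replicate 4 (-2.12 and -4.84), where Chrna9 and Gm10727 stay with their genotype.

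Of all 32026 probes, 2.28% were called higher in AR113Q on NCD and 2.83% on HFD. Calls of the 10 selected probes are not counted, as their genotype differences are given no test. A call here is an adjusted p under 0.05 in limma with a fold of at least 1.5 or at most 0.6. All AR113Q arrays lay above all CTR arrays for 5 of the 10 probes on NCD, against 7.17% of all probes, and for 5 of 10 on HFD, against 7.19%. As the genotype difference chose the transcripts, nothing is read from these counts. The gaining probes of 1810041L15Rik and Opn1mw, well above background on every array, ranked from 7 to 13 of 32026 by NCD difference and from 5 to 13 by HFD difference. The others are given no rank, as each had control values that were not well above background. Such probes still count among the 32026, so the ranks given are not exact, and nothing is read from them.

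The probes of a pair lie at different stretches of a gene, so the first 30 of the 60 bases of each are printed, 5′ to 3′ on the transcript strand. Whether each probe reads its own gene alone was not tested. A difference between the probes of a pair is therefore not assigned to a stretch of the transcript. Positions are those of the deposited files (build mm9, NCBI37), which do not name the exon or untranslated region a probe lies in.
Chrna9 A_55_P2186332, chr5:66335518-66335547, plus strand: gagcctgcttctcaatgagccccccaaaat
Chrna9 A_51_P381069, chr5:66368450-66368479, plus strand: tgtcatgaccgtcttgatcatagcaagagc
1810041L15Rik A_55_P2033381, chr15:84214182-84214211, minus strand: acaactgtgaaccagtggagtcggtaggca
1810041L15Rik A_55_P2033376, chr15:84209676-84209705, minus strand: gctgcgtttgtctttctatagagtggtttt
Opn1mw A_51_P486748, within chrX:71389017-71395936, plus strand: accggcagtttcgaaactgcatcttacatc
Opn1mw A_55_P1965876, chrX:71396020-71396049, plus strand: catcaaagctttggccatgttttacctccc
Cldn2 A_66_P122511, chrX:136343889-136343918, plus strand: cccaaagccaagagtgagttcaactcatac
Cldn2 A_52_P251450, chrX:136345244-136345273, plus strand: agtgtggaacatctgtgaccaaggtgttgt
The 60 bases of Opn1mw A_51_P486748 are placed over a span of 6920 bases, so its alignment is split. The remaining probes lie at chr3:144615506-144615565 on the minus strand for Clca6 and chr3:53541411-53541470 on the plus strand for Gm10727.

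For Chrna9 and 1810041L15Rik the gain was seen by 1 probe of the pair, and for Opn1mw by both. The upstream Chrna9 probe, A_55_P2186332, sits 32932 bases from the gaining one and was well above background on all 19 arrays. It ranged from -1.41 to -0.56 in CTR-NCD and from -2.54 to -1.30 in AR113Q-NCD, with a mean difference of -0.90. On HFD it ranged from -1.68 to -0.64 in CTR and from -2.93 to -1.57 in AR113Q, with a mean difference of -0.81. The groups overlapped, but within slides AR113Q was below CTR on all 5 NCD slides (-1.31 to -0.39) and on all 4 HFD slides (-1.25 to -0.58), opposite to the downstream probe.

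The upstream probe of 1810041L15Rik, A_55_P2033381, lies 4506 bases from the gaining one. Its group means lay between -6.07 and -5.69, and the groups overlapped throughout. The probe was well above background on 15 of 19 arrays, but on only 2 of 4 CTR-HFD arrays, so no difference between genotypes was measured on HFD. The upstream Cldn2 probe, A_66_P122511, lies 1355 bases from the gaining one and was not well above background on any CTR array. In AR113Q, 4 of 5 NCD arrays and all 5 HFD arrays were well above background, with means of -6.58 ± 1.07 (SD, n = 5) and -5.54 ± 0.89 (SD, n = 5). Against the control background this is at least 1.02-fold on NCD and at least 1.69-fold on HFD. The values of A_66_P122511 overlapped between the genotypes on both diets, and its calls depended on the background of each array. AR113Q-NCD replicates 1 and 5, at -6.55 and -6.70, were called, whereas CTR-HFD replicate 2, at -5.90, was not. Its calls are therefore not read as a second measure of the Cldn2 gain. For both Cldn2 probes only lower limits are known, so the sizes cannot be compared.

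**Figure D3:**
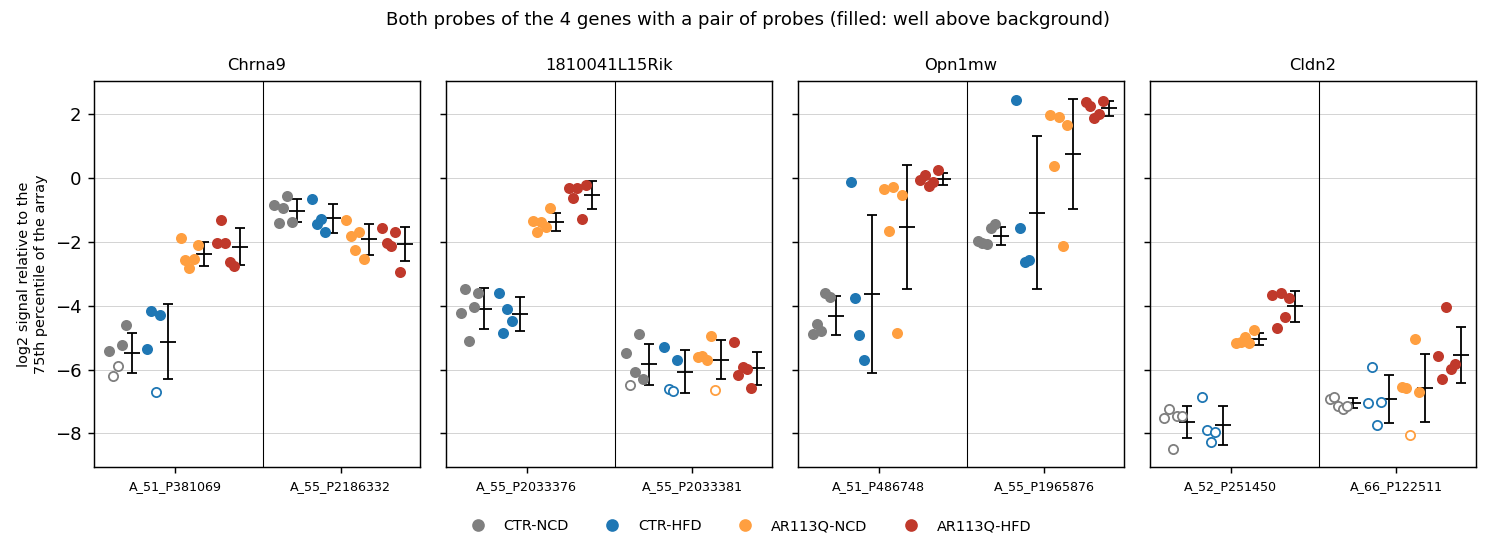
Log2 signal relative to the 75th percentile of the array for both probes of the 4 genes with a pair, by group; points are arrays, filled where well above background, with the mean and SD beside them. The Chrna9 and 1810041L15Rik gains are seen by 1 probe of the pair, both Opn1mw probes show the same arrays high and low, and neither Cldn2 probe is well above background in CTR.

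The order of the group means is given as a description. The choice of the transcripts by genotype by itself puts an AR113Q group highest for the gaining probes. The AR113Q-HFD group had the highest mean for 8 of the 10 probes, the exceptions being the upstream probes of Chrna9 and 1810041L15Rik. For Chrna9, Clca6, Cldn2, Gm10727 and 1810041L15Rik, the gaining probes of AR113Q-NCD came next, clear of both control groups. The control groups overlapped each other for every probe. AR113Q-HFD overlapped AR113Q-NCD for Chrna9, 1810041L15Rik, Clca6 and Gm10727 and narrowly cleared it for Cldn2 A_52_P251450 (lowest -4.70 against highest -4.74) and Opn1mw A_51_P486748 (-0.25 against -0.28). The other probe of each, Cldn2 A_66_P122511 and Opn1mw A_55_P1965876, overlapped. Shares of all probes with such an order or separation were not counted, so nothing is read from the order or the separation.

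The diet effect did not enter the choice of transcripts and was tested with limma over all 32026 probes. Within AR113Q, HFD minus NCD was 1.03 for Cldn2 A_52_P251450, 1.16 for Clca6, 0.83 for 1810041L15Rik A_55_P2033376 and 0.22 for both Chrna9 A_51_P381069 and Gm10727. For Opn1mw it was 1.44 and 1.51 by its 2 probes. None of the 10 probes passed, with adjusted p from 0.409 to 0.994 in limma, against 8 of all probes or 0.025%. At an unadjusted p under 0.05 there were 4 of the 10 probes and 2143 of all probes. Among them was Cldn2 A_52_P251450, whose lowest AR113Q-HFD array, at -4.70, lay just above its highest AR113Q-NCD array, at -4.74. For Opn1mw, the difference was 0.72 and 0.68 without AR113Q-NCD replicate 4. Within slides, AR113Q-HFD lay above AR113Q-NCD on every slide for Cldn2 A_52_P251450, 1810041L15Rik A_55_P2033376, Clca6 and Opn1mw A_51_P486748, and not for the other probes. The share of all probes that did so was not counted, so nothing is read from this. With slide as a block, none of the 10 probes passed in limma either, against 2 of all probes.

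Within CTR, HFD minus NCD was 0.73 for Opn1mw A_55_P1965876, and -0.45 without CTR-HFD replicate 1. None of the 10 probes passed in limma (adjusted p from 0.629 to 0.982) and none of all probes did (0%), with 0 of the 10 and 2787 of all at an unadjusted p under 0.05. The diet dependence of the genotype difference, the interaction, passed for none of the 10 probes (adjusted p from 0.951 to 0.999 in limma) and none of all probes (0%), with 2 of the 10 and 1501 of all at an unadjusted p under 0.05. Nothing is read from these CTR and interaction tests for Cldn2, Clca6 and Gm10727, whose control levels were not measured or mostly not measured on 1 diet or both. The lowest p of both tests came from these transcripts, from Gm10727 within CTR and from Cldn2 A_52_P251450 for the interaction. A p that misses the threshold does not show that the diets gave equal levels.

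Slides served as a batch, and the difference between genotypes was taken within each. On NCD, Chrna9 was higher in AR113Q on all 5 slides, by 2.51 to 3.54 on the 3 whose control was well above background. Over the 5 slides, 1810041L15Rik differed by 1.78 to 3.72 and Gm10727 by 2.41 to 3.39. Clca6 and Cldn2 A_52_P251450 were higher in AR113Q on every slide of both diets, by sizes not measured where the control was at background. Cldn2 A_66_P122511 read lower in AR113Q on NCD slide 3 and on HFD slide 2. On HFD, Chrna9, 1810041L15Rik and Gm10727 were higher on each of the 4 slides with both genotypes. Opn1mw A_55_P1965876 differed by -0.56 on NCD slide 4 and by -0.07 on HFD slide 1, and by at least 2.41 on each of the other slides.

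**Figure D4:**
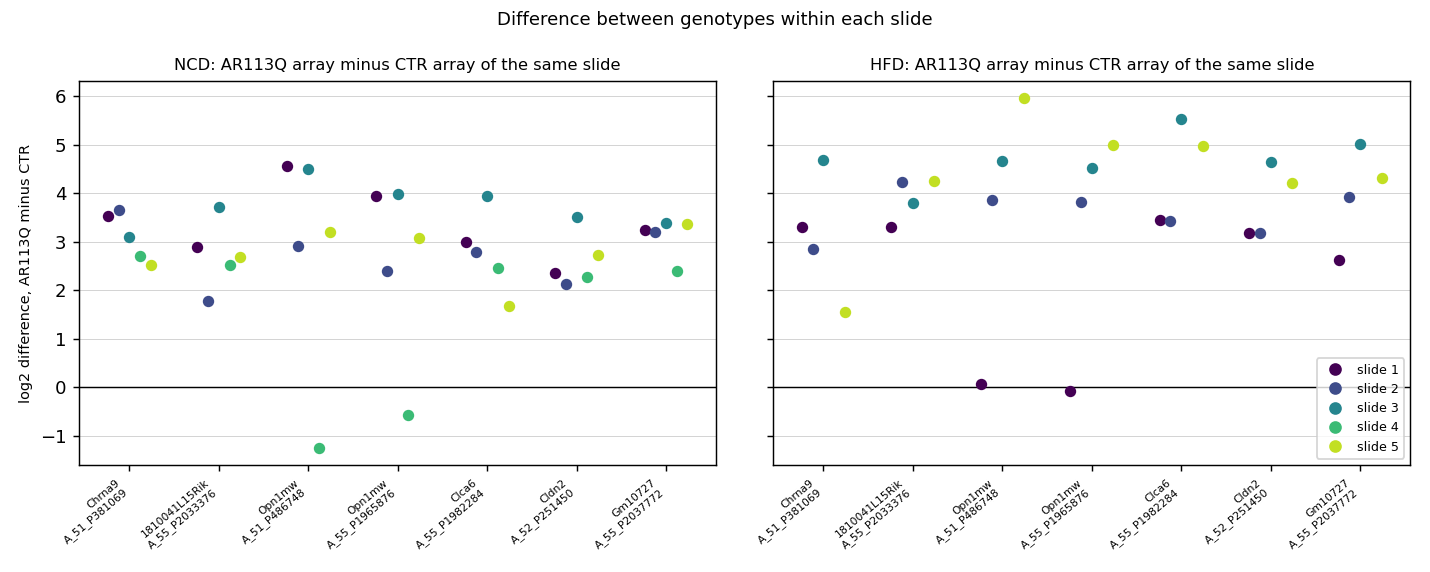
Log2 difference between the AR113Q and the CTR array of the same slide, for the 7 gaining probes on each diet; each point is a slide. All differences are above 0 except those of Opn1mw on NCD slide 4 and of its probe A_55_P1965876 on HFD slide 1. Those of Clca6, of Cldn2 and, on HFD, of Gm10727 mostly rest on control values at background, as do some of Chrna9.

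The dim probes depended on how background was removed. With normexp background correction in place of the scanner's own, which adds an offset of 50 intensity units, the median of all probes moved by -0.51 on NCD and by 0.06 on HFD. Relative to that median, Opn1mw A_55_P1965876 differed by 2.69 on NCD and 2.96 on HFD, A_51_P486748 by 1.97 and 2.58, and 1810041L15Rik A_55_P2033376 by 1.28 and 2.52. The values were 0.73 and 1.33 for Chrna9 A_51_P381069, 0.82 and 1.67 for Gm10727, and 0.11 and 1.44 for Clca6. Cldn2 A_52_P251450 turned to -0.28 on NCD and was 0.85 on HFD. In the authors' own table the difference of 1810041L15Rik was 1.47 on NCD and 1.94 on HFD, and that of Cldn2 1.32 and 2.04.

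The RefSeq promoter set holds 3 of the 6 genes (Chrna9, Opn1mw and Cldn2), whose promoters are shown as a description. 1810041L15Rik and Clca6, also by their RefSeq names, and Gm10727 were not in this set. Each run is the 250 bases before the start of the gene (build GRCm38.p6), 5′ to 3′, with matches in capitals. The motifs searched on both strands were the E-box CANNTG, bound by muscle regulatory factors, and the TATA box TATAAA.
Chrna9, chr5:65966874-65967123, plus strand: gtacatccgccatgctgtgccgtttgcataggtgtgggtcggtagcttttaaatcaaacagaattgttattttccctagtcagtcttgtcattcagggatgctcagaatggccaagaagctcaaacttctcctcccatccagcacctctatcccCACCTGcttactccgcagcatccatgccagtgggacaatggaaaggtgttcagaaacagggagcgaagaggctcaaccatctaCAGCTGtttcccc
Opn1mw, chrX:74127216-74127465, plus strand: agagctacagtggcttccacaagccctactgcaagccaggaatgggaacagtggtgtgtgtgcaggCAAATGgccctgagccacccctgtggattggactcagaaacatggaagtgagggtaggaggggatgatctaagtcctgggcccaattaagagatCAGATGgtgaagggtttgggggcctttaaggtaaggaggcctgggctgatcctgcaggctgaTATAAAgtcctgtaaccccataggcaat
Cldn2, chrX:139800558-139800807, plus strand: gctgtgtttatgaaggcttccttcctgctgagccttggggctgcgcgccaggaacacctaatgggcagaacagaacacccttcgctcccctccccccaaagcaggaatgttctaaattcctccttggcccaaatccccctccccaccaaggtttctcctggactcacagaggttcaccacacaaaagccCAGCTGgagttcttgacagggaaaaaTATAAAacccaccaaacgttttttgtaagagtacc
E-boxes numbered 2 in Chrna9, 2 in Opn1mw and 1 in Cldn2, and the TATA box was found in Opn1mw and Cldn2. Of the 32851 promoters in the set, 66.2% held an E-box in this window and 12.4% a TATA box. A match is a description of the letters and not of binding.

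Neighbouring genes within 500 kb of the probes were read by the same fit, each by its brightest probe. Of 78 neighbours, 3 were called on NCD, all higher, and 6 on HFD, 5 higher and 1 lower. Of all genes, 2.24% were called higher and 2.05% lower on NCD, and 2.72% higher and 1.96% lower on HFD. Called beside the transcripts were N4bp2 beside Chrna9 (0.73 on NCD, adjusted p = 0.000102, and 0.59 on HFD, adjusted p = 0.00105) and Pnpla3 beside 1810041L15Rik (0.88, adjusted p = 0.00317, and 0.82, adjusted p = 0.00736). Beside Cldn2, Morc4 was higher at 0.62 on both diets (adjusted p = 0.000441 and 0.000665) by its brightest probe, while its other probes were not called (0.47 and 0.46, and 0.07 and -0.20), and Ripply1 was called on HFD alone at 0.88 (adjusted p = 0.0489).

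Beside Opn1mw, among 37 neighbours, the muscle-specific kinase gene Srpk3 was called on HFD (0.73, adjusted p = 0.00103). A dim probe of Tex28, only 204 bases from the Opn1mw probe A_55_P1965876, was called higher on HFD and was well above background on 10 AR113Q arrays and 3 CTR arrays. The brighter Tex28 probe, which was the one counted, differed by -0.31 on NCD and 0.04 on HFD. Around Clca6, its relative Clca5 was called lower on HFD. It was well above background on only 6 of 19 arrays, so the size is not given. Clca3, the next gene, was not called on either diet. It was well above background on 5 CTR and 9 AR113Q arrays, so its size is not given either. None of the 5 neighbours of Gm10727 was called.

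The families of the transcripts were also read by the brightest probe of each gene. The median over all genes was -0.06 on NCD and -0.09 on HFD. Of 12 other nicotinic receptor subunits, 1 was higher and 1 lower on NCD, and 2 were higher on HFD, with medians of -0.09 and -0.16. Chrna1, the muscle alpha subunit, was 2.84-fold higher on NCD (adjusted p = 6.52e-06) and 3.96-fold higher on HFD (adjusted p = 1.3e-06). Chrnb1 rose by 0.98 on HFD (adjusted p = 0.000753), and Chrna10, the hair cell partner of Chrna9, fell by 0.87 on NCD (adjusted p = 0.00027).

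None of 5 other opsins and none of 8 other Shisa genes was called, with medians of 0.14 and -0.21 on NCD and -0.44 and -0.32 on HFD. Of 4 other chloride channel accessory genes, Clca5 alone was called, on HFD, and the medians were -0.21 and -0.08. The bright family member Clca1, at a mean of 4.61 in CTR-NCD, differed by -0.05 on NCD. Of 26 other claudins and tight junction proteins, 2 were higher and 1 lower on NCD and 3 higher and 3 lower on HFD, with medians of -0.08 and -0.17. Cldn17 fell by 0.89 and 0.99 (adjusted p = 0.00107 and 0.000722) and Marveld2 rose by 0.97 on HFD (adjusted p = 0.0129). With normexp correction the called genes numbered 1 on NCD and 2 on HFD for nicotinic subunits, 0 and 1 for claudins, and 0 for chloride channel accessory genes, where quantile normalization also left 0. Relative to the median of all probes, the family medians were then between -0.59 and -0.19 on NCD and between -0.06 and -0.02 on HFD, so that of opsins on NCD turned sign.

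Denervation genes, the programme in which Chrna1 is known, were the list with most calls. Of 18, 7 were higher and 1 lower on NCD, and 8 higher and 1 lower on HFD. Sln, the sarcolipin gene, rose by 3.40 and 3.73 (adjusted p = 0.00118 and 0.000869), Runx1 by 1.24 and 1.08 (adjusted p = 2.79e-05 and 0.000162) and Gadd45a by 1.23 and 1.04 (adjusted p = 1.07e-05 and 7.75e-05). Fbxo32, an atrophy ubiquitin ligase, fell by 1.76 and 1.70 (adjusted p = 1.16e-05 and 2.94e-05). The summed signal of the list, dominated by Myh8, ran from 608.1 to 707.4 (CTR) and from 498 to 602 (AR113Q) on NCD, and from 560.2 to 713 (CTR) and from 486 to 576 (AR113Q) on HFD. The part of these genes in the gains was not tested.

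Markers of the cell types in which the transcripts are best known were read on the same arrays. Of 18 photoreceptor markers tested, 0 were higher and 1 lower on NCD and 1 higher and 1 lower on HFD. The shares of all genes called, given above, apply to this and the following lists. Gnat2, the cone transducin, fell by 2.46 and 2.27 (adjusted p = 3.98e-07 and 1.37e-06), and Cnga3, a cone channel, rose by 1.25 on HFD (adjusted p = 0.00367). Their summed signal ran from 16.4 to 21.1 (CTR) and from 15.6 to 18.9 (AR113Q) on NCD, and from 17.8 to 27.3 (CTR) and from 14.5 to 23.0 (AR113Q) on HFD. The defining photoreceptor genes Crx, Nrl, Nr2e3, Rcvrn and Grk1, together with Cnga1, Gngt1 and Rp1, were well above background on at most 3 arrays and were not tested.

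Of 22 epithelial markers, 0 were higher and 1, Elf3, lower on NCD (-1.17, adjusted p = 0.0319, well above background on 15 of 19 arrays), and 0 were called on HFD. Their most abundant gene was Krt18, and their sum ran from 1.19 to 1.90 (CTR) and from 0.908 to 1.73 (AR113Q) on NCD, and from 1.15 to 2.09 (CTR) and from 1.36 to 7.63 (AR113Q) on HFD. AR113Q-HFD replicates 1 and 5 stood apart at 7.63 and 7.16, above the other 3, which reached 1.71 at most. Cldn2 A_52_P251450 read -3.66 and -3.74 on those arrays. On replicates 2, 3 and 4 it read -4.70, -3.61 and -4.35, where the epithelial sum was 1.71, 1.36 and 1.39. Of 9 hair cell markers, only Chrna10 was called, on NCD. Otof was the most abundant, the sum lay between 1.17 and 2.08 on every array, and Pou4f3, Atoh1 and Tmc1 were well above background on at most 2 arrays and were not tested. The part of these cell types in the gains was not tested.

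Among other cells of muscle, 0 of 11 adipocyte, 0 of 7 red blood cell, 0 of 12 Schwann cell and 0 of 13 macrophage markers were called on either diet. Their most abundant genes were Fabp4, Hba-a1, Pmp22 and Csf1r. The Schwann cell sum on NCD ran from 6.10 to 8.62 (CTR) and from 9.15 to 10.3 (AR113Q), without overlap, and on HFD from 6.74 to 9.41 (CTR) and from 7.40 to 9.96 (AR113Q), with overlap. The adipocyte sum ran from 70.7 to 206 (CTR) and from 85.8 to 145 (AR113Q) on NCD, and from 66.6 to 138 (CTR) and from 55.4 to 193 (AR113Q) on HFD. The red blood cell sum lay between 28.4 and 158, both in CTR-HFD, and the macrophage sum between 19.8 and 31.1, both in CTR-NCD. Epb4.2 was well above background on at most 1 array and was not tested. The part of these cells in the gains was not tested.

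The genes whose signal followed each gaining probe most closely over the 19 arrays were named by Pearson r, as a description with no p. Much of each r is the difference between genotypes, so r after subtraction of the group means is given beside it. 1810041L15Rik and Cldn2 were each other's closest match (r = 0.984, and 0.757 within groups), and a Chrna1 probe was close to both (0.972 and 0.977, and 0.514 and 0.556 within groups). Chrna9 was followed by Arid3b, Pgpep1l and Ddc (r of 0.962, 0.956 and 0.955, and 0.744, 0.698 and 0.663 within groups). Clca6 was followed by Ect2l, Cldn2 and Gm8075 (0.967, 0.955 and 0.955), with 0.580 for Cldn2 and 0.725 for Gm8075 within groups and Ect2l the highest there too. Gm10727 was followed by Sytl2, Pak1 and Asl (0.973, 0.970 and 0.969, and 0.737, 0.562 and 0.495 within groups). Genes named by likeness are given no test between genotypes, as the likeness chose them.

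Opn1mw had no such close match by r over all arrays. Within groups, r of A_55_P1965876 was 0.823 with Cyp4f39 and 0.826 with Gm10727, not lower than those named above. The nearest for A_55_P1965876 were Nudt16, Rpgr and Cyp4f39 (r of 0.853, 0.848 and 0.847, and 0.601, 0.532 and 0.823 within groups), and A_51_P486748 also matched Nudt16 best (0.853, and 0.586 within groups). Among the selected transcripts, the within-group r of Opn1mw A_55_P1965876 was 0.826 with Gm10727, 0.531 with Cldn2 A_52_P251450, 0.426 with Clca6 and 0.0988 with Chrna9 A_51_P381069. The 3 upstream probes followed other genes: Scgb1b3 for Chrna9 (0.964, and 0.925 within groups), Olfr905 for 1810041L15Rik (0.929 and 0.933) and Lrrc17 for Cldn2 (0.805 and 0.662).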

How the data were processed

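The deposited scanner files hold intensity values from Agilent Feature Extraction 10.7.3.1, with background subtracted and spatial trends removed but arrays not normalized to each other. The authors' table holds log2 values of 25944 entries (column medians 7.59 to 7.65, r of 0.979 to 0.982 with the scanner log2 values). Scale and direction follow from this, and its centring stays unknown. Non-control spots numbered 43020; outlier spots were dropped and the rest averaged to 39429 probes. Testing required 4 of 19 arrays on which at least 0.5 of a probe's spots passed the well-above-background call. R 4.3.3 with limma 3.58.1 compared the 4 groups, adjusting p over all probes by Benjamini-Hochberg; the fit was tested on simulated data. Python 3.11.15, pandas 2.3.3, numpy 2.4.6, matplotlib 3.10.9 and the R package data.table (version 1.17.8) were also used. Named beyond the members were up to 5 called genes and the most abundant of each list, the nearest and called neighbours, and the 3 genes most like each probe; some genes under this rule are not reported here. Members and lists were chosen with earlier results of these data known. Alternatives were 2 other scalings, normexp, the authors' table, 2 filters, kept outlier spots, slide and replicate blocks, array weights, a robust variance trend, a 1000 kb window and leaving out single arrays.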

Additional observations from a re-analysis of the deposited data

Results flagged for a closer look

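In Cldn2 probe A_52_P251450, CTR-NCD replicate 3 read -8.50 while the nearest of the other 4 arrays read -7.53, so that the gap was 0.775 of the whole range of the group. None of these arrays was well above background. Of 44 groups of probe values looked at, this was the 1 past the threshold, and chance gives about 1 in 20.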

How the results depend on the processing

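Normexp background correction moved the counts of probes higher in AR113Q most, to 265 on NCD and 256 on HFD, against 729 and 906. With normexp 2 probes changed with diet in AR113Q, against 8, and other settings given below moved this count as far or further. The normexp median over all probes was -0.57 on NCD and -0.02 on HFD. The genotype differences on NCD and HFD became 0.16 and 1.31 for Chrna9 A_51_P381069, 0.71 and 2.50 for 1810041L15Rik A_55_P2033376, and 0.25 and 1.65 for Gm10727. They were -0.46 and 1.42 for Clca6, which on NCD was still 0.11 above that median, and -0.85 and 0.83 for Cldn2 A_52_P251450, which on NCD was below it (-0.28). For Cldn2 A_66_P122511 they were -1.19 and 0.28, and for 1810041L15Rik A_55_P2033381 -1.12 on NCD. In the authors' table, which lacks 3 of the 10 probes, they were 1.47 and 1.94 for 1810041L15Rik and 1.32 and 2.04 for Cldn2.

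With single arrays left out, 648 to 788 probes were higher on NCD and 766 to 1086 on HFD, 0 to 12 changed with diet in AR113Q (0 without AR113Q-NCD replicate 5, 12 without AR113Q-HFD replicate 4) and 0 to 1 in CTR (1 without CTR-NCD replicate 5) in limma, against 2143 and 2787 at an unadjusted p under 0.05. No interaction was called under any setting (1501 at an unadjusted p under 0.05). For members, no adjusted p over the settings passed for diet or the interaction, the lowest in limma being 0.110 for diet in CTR.

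Arrays of the same replicate number in other groups had a median r of 0.237 (19 of 27 pairs over 0.1), and those of other numbers -0.085 (27 of 108). The number equals the slide except for CTR-HFD replicate 4, so same-numbered arrays share a slide; the labels name no pairing and not every pair passed 0.1, so the block stayed an alternative. As a block, replicate number gave 754 probes higher on NCD and 921 on HFD and 2 changed with diet in AR113Q, and slide as a block 758, 1003 and 2, with 831 lower on NCD and 982 on HFD, against 658 and 605. Within 1000 kb, 11 neighbouring genes were called on NCD and 15 on HFD.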

Other observations

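Raly, an RNA-binding protein gene on chromosome 2, was picked after its values were seen, as the gene whose signal ran most against Opn1mw A_55_P1965876 within groups (r = -0.893 after subtraction of the group means). Its log2 signal relative to the 75th percentile was 1.31, 1.33, 1.27, 1.29 and 1.32 in CTR-NCD and 0.45, 1.57, 1.45 and 1.48 in CTR-HFD. In AR113Q-NCD it was 1.27, 1.41, 1.43, 1.81 and 1.42, and in AR113Q-HFD 1.45, 1.52, 1.54, 1.59 and 1.59. The lowest value, 0.45, came from CTR-HFD replicate 1 and the highest, 1.81, from AR113Q-NCD replicate 4, the arrays in which Opn1mw was high and low against its genotype. As Opn1mw strayed furthest from its group means in these arrays, the choice by r favoured such a gene. Nothing is read from it.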
